A study of Mus musculus with 18 samples.

Results

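Expression of 9 histone acetyltransferase genes was compared between the 3 main dendritic cell subsets of the mouse spleen. The genes are Ep300 and Crebbp of the CBP/p300 family, Kat2a and Kat2b of the GNAT family, and Kat5, Kat6a, Kat6b, Kat7 and Kat8 of the MYST family. They were chosen by name as nuclear acetyltransferases whose activity opposes that of the deacetylase HDAC1, and all 9 were found among the 17903 genes listed for at least 1 subset and among the 15219 listed for all 3. The study sorted type 1 conventional dendritic cells (cDC1), type 2 conventional dendritic cells (cDC2) and plasmacytoid dendritic cells (pDC) from spleens, extracted RNA, and sequenced libraries made with a SMARTER kit. Per the labels, each subset has 6 samples, 3 from mice labelled HDAC1 floxed and 3 from mice labelled HDAC1 Mx1-Cre. All mice, the floxed controls included, received polyI:C, and cells were sorted 2 weeks later. Mx1-Cre is driven by an interferon-inducible promoter that is active in many blood-forming and other cells, so recombination is not restricted to dendritic cells, and polyI:C is itself an inducer of interferon.

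The deposited counts come as 3 tables, each titled with a subset and holding 6 columns. The columns carry bare codes that match no sample label, so the subset of a column was taken from the title of its table, and the genotype of a column was not assigned. Each comparison below is therefore between tables of 6 columns, and the spread within a table holds whatever difference genotype makes. The labels do not say whether samples of a group came from separate mice, so p-values measure the spread between these columns, part of which may be technical. As tables and subsets coincide, a difference between subsets and a difference in how the tables were made cannot be told apart.

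Histone acetyltransferases transfer the acetyl group of acetyl-CoA to lysines of histones and other proteins, and class I deacetylases such as HDAC1 remove it. CBP and p300 are large co-activators recruited by many transcription factors and acetylate histone H3 lysine 27 at enhancers and promoters. GCN5 (Kat2a) and PCAF (Kat2b) are alternative catalytic subunits of the SAGA and ATAC complexes. The MYST enzymes act in the TIP60/NuA4 complex (Kat5), with BRPF or JADE scaffold proteins (Kat6a, Kat6b and Kat7) and in the MSL and NSL complexes (Kat8).

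The column totals ranged from 23530860 to 37105002 counts in cDC1, from 25672768 to 33820524 in cDC2 and from 24453121 to 31773453 in pDC. Levels are given as CPM, the usual per-library scale in which each count is divided by the column's own total. In bulk RNA of this kind, fewer cells with a transcript and less of it per cell cannot be told apart. Summed levels of 7 markers per subset went with the titles of the cDC1 table (2179 to 2954 CPM of cDC1 markers there against 180 to 287 in cDC2 and 329 to 386 in pDC) and of the pDC table (19757 to 22568 CPM of pDC markers against 107 to 204 in cDC1 and 105 to 138 in cDC2). The summed cDC2 markers reached 1108 to 1482 CPM in cDC2 and 30.3 to 101 CPM in cDC1, but 1442 to 1853 CPM in pDC, through Cd209a and Clec10a. The cDC2 markers Clec4a4, Esam and Itgam were low in pDC, with at most 3, 66 and 110 counts in a column. Mgl2 averaged 35.9 CPM in pDC and 30.9 CPM in cDC2, and Sirpa 153 CPM in pDC and 390 CPM in cDC2. Among the cDC1 markers, Tlr3 averaged 129 CPM in pDC and 116 CPM in cDC1, while the rest had their highest mean in cDC1. Of the lists for other cells, the 6 erythroid markers summed to 2328 to 8811 CPM over the 3 tables, the 4 neutrophil markers reached 806 CPM in cDC1, 114 CPM in cDC2 and 203 CPM in pDC, and the 5 macrophage and monocyte markers summed to 6772 to 7709 CPM in pDC, nearly all of it Ly6c2. The same 5 markers summed to 76.5 to 105 CPM in cDC1 and 268 to 377 CPM in cDC2. In cDC2 Adgre1 averaged 203 CPM and Cd14 111 CPM, beside 5.58 and 58.3 CPM in cDC1. The 4 cycling markers summed to 77.9 to 100 CPM in cDC1, 97.0 to 156 CPM in cDC2 and 14.0 to 32.7 CPM in pDC. B cell markers (5) reached at most 190 CPM, T cell markers (5) at most 24.3 CPM, NK cell markers (4) at most 17.1 CPM and basophil markers (4) at most 4.94 CPM, and plasma cell markers (3) summed to 17.8 to 358 CPM in cDC1, 1.5 to 22.2 CPM in cDC2 and 152 to 394 CPM in pDC. In pDC the plasma cell sum was made of Mzb1 (113 to 175 CPM), Sdc1 (16.2 to 22.8 CPM) and Jchain (6.03 to 223 CPM). The part of other cells in the differences below was not tested. The sort itself used the proteins XCR1, CD11b (Itgam) and BST2, so a difference in their transcripts is not an independent check of the titles. The targeted gene, Hdac1, ranged from 4.94 to 74.6 CPM in cDC1, from 5.78 to 79.7 CPM in cDC2 and from 9.52 to 124 CPM in pDC.

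Of the 9 acetyltransferases, 7 differed in some way between the 3 subsets, at an adjusted p under 0.05 in edgeR's quasi-likelihood test, where 78.8% of the 13539 genes tested did. In cDC2 against cDC1, 4 of the 9 were higher (Ep300, Kat6a, Kat7 and Kat8) and 1 was lower (Kat2b), against 25.7% and 24.8% of all genes tested. In pDC against cDC1, 3 were higher (Kat5, Kat7 and Kat8) and 1 was lower (Kat2b), against 32.1% and 34.3% of all genes. In pDC against cDC2, 4 were higher (Kat5, Kat6b, Kat7 and Kat8) and 2 were lower (Ep300 and Kat2b), against 32.0% and 32.2% of all genes. In either direction the members called were 5, 4 and 6 of 9, beside 50.5%, 66.4% and 64.1% of all genes. The share of acetyltransferases called was thus near that of genes at large in cDC2 against cDC1 and pDC against cDC2, and lower in pDC against cDC1. These shares of 9 genes were not tested. The 3 comparisons share their columns in pairs and are not independent. Without scaling factors, an alternative chosen after seeing the data, the split of calls in pDC against cDC1 moved from 4341 higher and 4645 lower to 5527 higher and 3481 lower, and in pDC against cDC2 from 4329 and 4355 to 5625 and 3351. That alternative put the median gene at a log2 difference of 0.17 in pDC against cDC1 and 0.20 in pDC against cDC2, so differences of members given below are relative to the typical gene under TMM scaling.

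**Figure D1:**
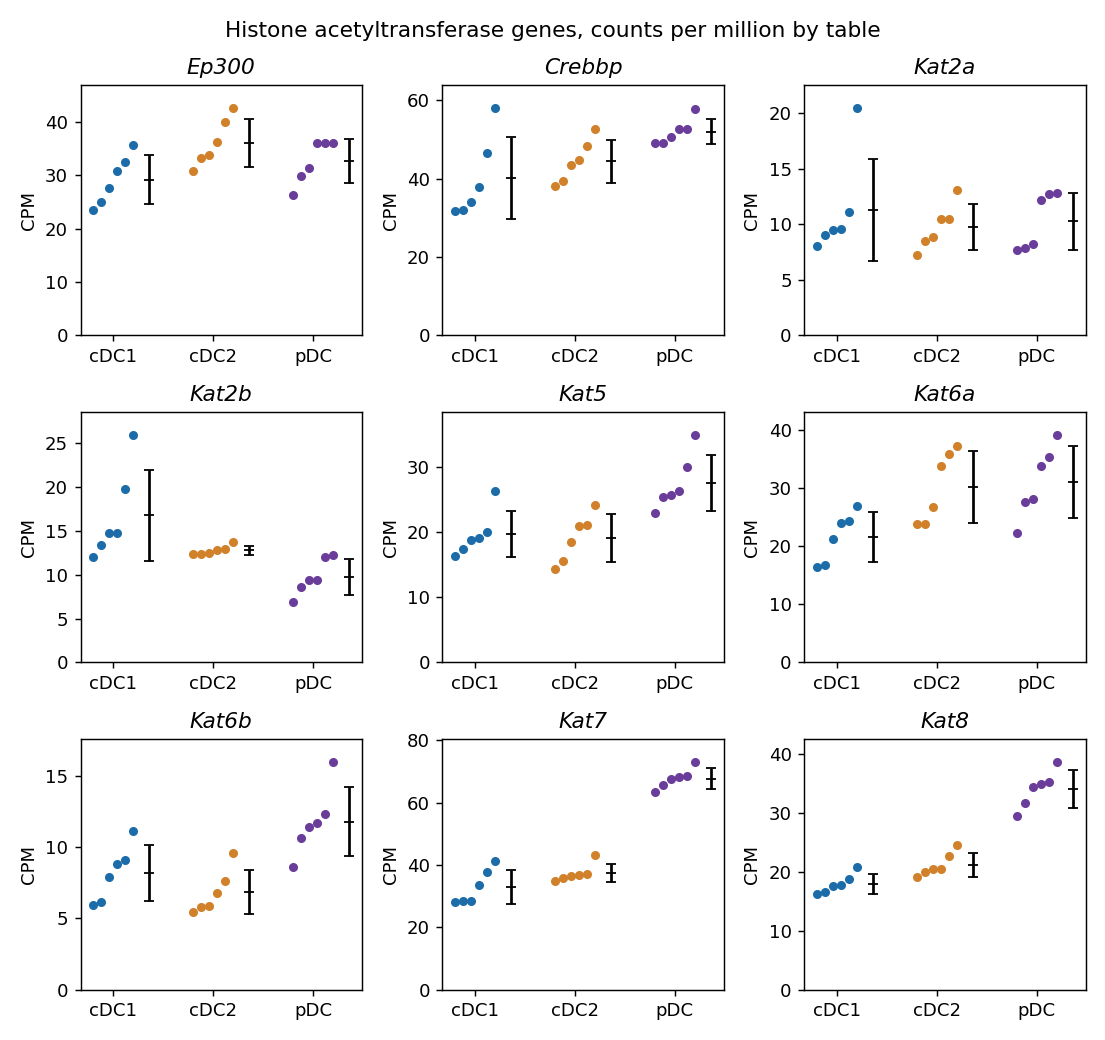
Level of each acetyltransferase gene in CPM (vertical axes, starting at 0) in the 6 columns of each table (points, sorted by value), with the mean and SD beside them. The pDC columns of Kat7 (63.3 to 73.0 CPM) and Kat8 (29.4 to 38.6 CPM) lie above every cDC1 and cDC2 column, and the pDC columns of Kat2b (6.91 to 12.2 CPM) lie below every cDC2 column.

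Kat7 and Kat8 had the smallest adjusted p-values among the 9 genes in the test of any difference (1.98e-09 and 2.49e-08), and both were higher in pDC. Kat7 encodes HBO1, which acetylates histones H3 and H4. It lies on chromosome 11 (GRCm38, 95274259 to 95310246, minus strand). Its lowest, median and highest levels were 28.2, 31.0 and 41.2 CPM in cDC1, 34.9, 36.7 and 43.1 CPM in cDC2, and 63.3, 67.9 and 73.0 CPM in pDC. The pDC columns overlapped with neither of the other tables, whereas the cDC1 and cDC2 columns overlapped. Kat7 was 1.78-fold higher in pDC than in cDC1 (log2 difference 0.83, SE 0.0708, adjusted p = 2.06e-09) and 1.57-fold higher than in cDC2 (log2 difference 0.65, SE 0.0706, adjusted p = 7.35e-08). It was also higher in cDC2 than in cDC1, by a log2 difference of 0.18 (adjusted p = 0.0434). That smaller difference was lost when the fit held only cDC1 and cDC2 (adjusted p = 0.0869), without scaling factors (adjusted p = 0.122), and without cDC1 column a157, a163, a166 or a169, cDC2 column a158, a161, a170 or a173, or pDC column a164 (adjusted p from 0.0503 to 0.0969).

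Kat8 encodes MOF, the enzyme that acetylates histone H4 lysine 16, and lies on chromosome 7 (127912516 to 127925837, plus strand). The cDC1, cDC2 and pDC levels (lowest, median, highest) were 16.2, 17.7 and 20.8 CPM in cDC1, 19.1, 20.6 and 24.5 CPM in cDC2, and 29.4, 34.7 and 38.6 CPM in pDC. As for Kat7, all pDC columns were above all others, and the cDC1 and cDC2 columns overlapped in CPM. Kat8 was 1.64-fold higher in pDC than in cDC1 (log2 difference 0.71, SE 0.0685, adjusted p = 1.30e-08) and 1.39-fold higher than in cDC2 (log2 difference 0.48, SE 0.0682, adjusted p = 3.34e-06). The step from cDC1 to cDC2 was 0.23 on the log2 scale (SE 0.0687, adjusted p = 0.00811). All 3 Kat8 differences were called when any of the 18 columns was left out, with adjusted p of at most 0.0219. Kat8 overlaps Prss8 on the opposite strand, and no source used here says whether reads were counted by strand.

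Kat5 encodes TIP60, the catalytic subunit of the NuA4-type complex, and lies on chromosome 19 (5603014 to 5610237, minus strand). Its lowest, median and highest levels were 16.3, 19.0 and 26.3 CPM in cDC1, 14.3, 19.7 and 24.1 CPM in cDC2, and 22.9, 26.0 and 34.9 CPM in pDC. The pDC columns were shifted upward but overlapped with both other tables. Kat5 was higher in pDC than in cDC1 (log2 difference 0.28, SE 0.119, adjusted p = 0.0473) and than in cDC2 (log2 difference 0.32, SE 0.119, adjusted p = 0.0221), while cDC2 and cDC1 differed by -0.05 (95% interval -0.298 to 0.2, adjusted p = 0.762). The first call was lost without cDC1 column a157, a160, a163, a166 or a169, cDC2 column a165 or a173, or pDC column a159, a168 or a171 (adjusted p from 0.0509 to 0.134). The second was lost without cDC2 column a161 or a167 or pDC column a171 (adjusted p from 0.0563 to 0.0699). Kat5 overlaps Rnaseh2c on the opposite strand.

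The promoters of the 3 MYST genes that were higher in pDC than in both conventional subsets are shown because they share a short sequence near the start. RefSeq promoter windows (GRCm38.p6, 250 bases before to 50 after each annotated start) were found for 8 of the 9 genes, and Kat6a was not matched. Kat2b, Kat5, Kat6b and Kat8 have 2 starts each, so the 8 genes have 12 windows. Counts of members below use the start listed first for each gene unless said otherwise. Of 14 motifs searched on both strands, CCGGAAGT, the core bound by ETS-family factors, was found in the first window of Kat5, Kat7 and Kat8 and in no window of the other 5. The second windows of Kat5 and Kat8 do not hold it, so 3 of the 12 windows do. Among all 32851 windows, 3.89% hold it. The shorter CCGGAA (in 14.9% of windows), CGGAAG (16.9%) and GGAAGT (23.8%) lie within it, so their matches inside CCGGAAGT are not separate. Kat2b, which has no CCGGAAGT, holds GGAAGT at bases -7 to -2 of its first window. In its second window GGAAGT lies at bases -10 to -5, on the opposite strand. Kat8 has 1 further CCGGAA on the strand of the gene, at bases -30 to -25. The others searched were GAGGAAG (13.6% of windows), CAGGTG (20.2%), GGGCGG (35.7%), CCAAT (37.4%), TGACGTCA (1.79%) with its part TGACG (20.8%), the NRF1 palindrome (0.971%) with its part TGCGCA (7.76%), and the YY1 motif (0.633%) with its part ATGGCG (8.93%). TGACG was in the first window of 5 of the 8 genes (Kat2a, Kat2b, Kat5, Kat7 and Kat8). CCAAT was in that of Kat2b, Kat5, Kat7 and Kat8, so Kat5, Kat7 and Kat8 share these motifs too. ATGGCG was in the first window of Ep300, Kat2b, Kat7 and Kat8, and GAGGAAG in that of Ep300, Kat2b and Kat7. CAGGTG was in the first window of Kat7 and Kat8, and TGCGCA in that of Kat2a and Kat7. GGGCGG was in the first window of 4 and, with the second start of Kat5, in a window of 5, and TGACGTCA (the full cAMP response element) was in none of the 12 windows. In Kat7 the match spans bases 1 to 8 of the transcript, on the strand of the gene. In Kat8 it also spans bases 1 to 8, on the opposite strand, so that it reads as ACTTCCGG. In Kat5 it is found at bases 14 to 21 and 39 to 46, and the first of these is shown. The Kat2a promoter is given as a contrast without a match. Each sequence runs 5′ to 3′ along the gene, with the motif in capitals.
Kat7 promoter, chr11:95310217-95310496, minus strand, bases -250 to 30: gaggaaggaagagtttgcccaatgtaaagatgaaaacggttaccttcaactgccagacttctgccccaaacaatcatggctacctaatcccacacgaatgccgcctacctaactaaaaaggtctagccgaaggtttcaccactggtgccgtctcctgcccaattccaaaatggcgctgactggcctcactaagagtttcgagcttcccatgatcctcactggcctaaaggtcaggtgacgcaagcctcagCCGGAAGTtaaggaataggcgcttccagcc
Kat8 promoter, chr7:127912267-127912546, plus strand, bases -250 to 30: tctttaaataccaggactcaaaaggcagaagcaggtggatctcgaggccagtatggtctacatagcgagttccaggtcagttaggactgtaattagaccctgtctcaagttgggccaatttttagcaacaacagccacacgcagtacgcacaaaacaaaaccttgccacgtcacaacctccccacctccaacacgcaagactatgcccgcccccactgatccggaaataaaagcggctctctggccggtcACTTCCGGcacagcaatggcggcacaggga
Kat5 start, chr19:5610065-5610094, minus strand, bases 1 to 30: agcgcactcagctCCGGAAGTgacgtctcc
Kat2a promoter, chr11:100712438-100712717, minus strand, bases -250 to 30: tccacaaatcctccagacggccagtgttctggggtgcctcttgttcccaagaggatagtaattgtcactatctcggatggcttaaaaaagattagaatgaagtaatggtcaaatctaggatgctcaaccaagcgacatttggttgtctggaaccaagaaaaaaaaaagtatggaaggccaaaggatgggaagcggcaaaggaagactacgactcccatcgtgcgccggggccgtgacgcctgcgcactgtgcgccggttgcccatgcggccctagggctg
The windows of Kat7 and Kat8 each hold 53% G and C and that of Kat5 57%, beside a median of 52.67% over all windows. Those of Kat6b, Ep300 and Crebbp hold 78.33%, 72.33% and 82%. The CpG counts were 14 in Kat7, 12 in Kat8 and 19 in Kat5, above the median of 7, and 19 in Kat2a. As CCGGAAGT holds a CpG, its share of 3.89% over all windows is not a share among windows of like CpG content. A match in the sequence is a description of these letters, and binding was not measured. The motifs and the promoters shown were chosen after the levels were known.

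Kat6a (MOZ) and Kat6b (MORF) are paralogues that act with BRPF scaffold proteins on histone H3, and they followed different orders across the subsets. Kat6a, on chromosome 8 (22859535 to 22943259, plus strand), had lowest, median and highest levels of 16.4, 22.5 and 27.0 CPM in cDC1, 23.8, 30.2 and 37.2 CPM in cDC2, and 22.3, 31.0 and 39.1 CPM in pDC. All 3 tables overlapped, with cDC1 lowest. Within each table, columns with Hdac1 above 50 CPM all had more Kat6a than columns with Hdac1 under 15 CPM. Those Kat6a levels were 23.9 to 27.0 against 16.4 to 21.1 CPM in cDC1, and 33.7 to 37.2 against 23.8 to 26.6 CPM in cDC2. In pDC they were 33.7 to 39.1 against 22.3 to 28.2 CPM. This was seen in the values and was not tested. Kat6a was higher in cDC2 than in cDC1 (log2 difference 0.47, SE 0.164, adjusted p = 0.0230), a call lost without cDC1 column a169 or a172 or cDC2 column a161 (adjusted p from 0.0548 to 0.0578). For pDC against cDC1 the log2 difference was 0.31 (95% interval -0.0311 to 0.654, adjusted p = 0.101). It passed the threshold without pDC column a171 or a174 (adjusted p = 0.036 and 0.0441) and without scaling factors (0.52, adjusted p = 0.00585). pDC and cDC2 differed by -0.15 (95% interval -0.495 to 0.187, adjusted p = 0.426), a value that turned to 0.04 without scaling factors.

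Kat6b, on chromosome 14 (21481434 to 21672478, plus strand), was highest in pDC. Levels (lowest, median, highest) were 5.96, 8.35 and 11.2 CPM in cDC1, 5.42, 6.32 and 9.61 CPM in cDC2, and 8.60, 11.6 and 16.0 CPM in pDC. The order was pDC, cDC1, cDC2, with overlap between every pair of tables. Only pDC against cDC2 passed the test, 1.5-fold higher in pDC (log2 difference 0.59, SE 0.171, adjusted p = 0.00506). cDC2 against cDC1 gave -0.26 (95% interval -0.617 to 0.0968, adjusted p = 0.218) and pDC against cDC1 gave 0.33 (95% interval -0.0266 to 0.681, adjusted p = 0.0951). The latter passed the threshold without scaling factors (0.53, adjusted p = 0.0134) and without cDC1 column a163, cDC2 column a158, or pDC column a171 or a174 (adjusted p from 0.0311 to 0.0446).

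**Figure D2:**
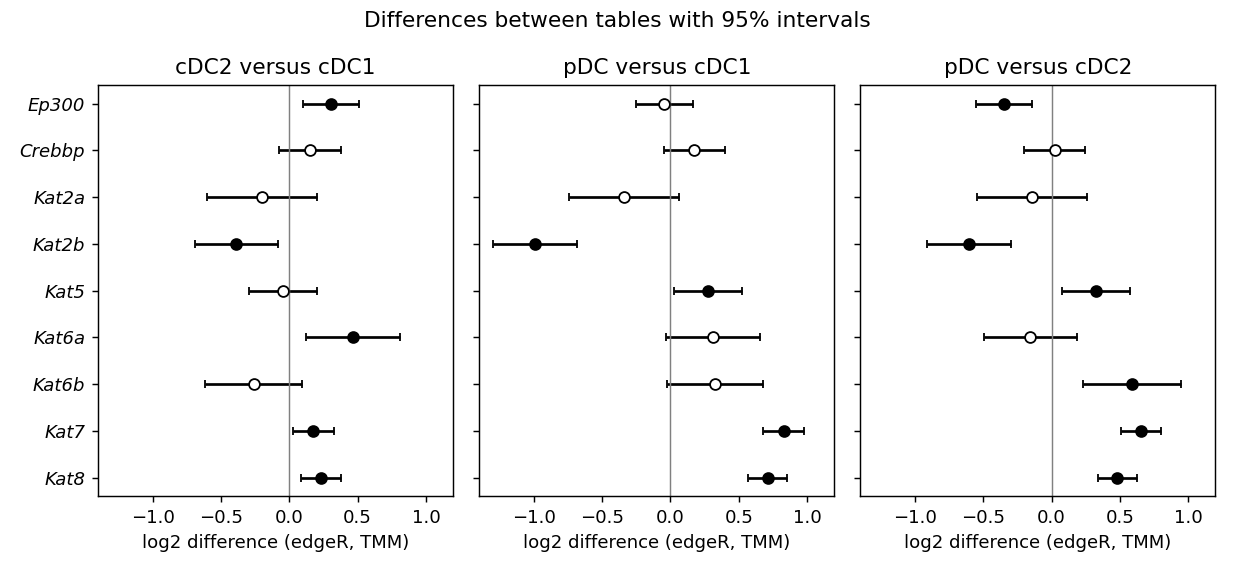
Log2 difference between tables for each acetyltransferase gene (points, horizontal axes) with 95% intervals from the edgeR fit, and filled points at adjusted p under 0.05. Kat7 (0.83 and 0.65) and Kat8 (0.71 and 0.48) stand to the right in both pDC comparisons, and Kat2b (-0.39, -0.99 and -0.60) to the left in all 3.

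Ep300, which encodes p300, was highest in cDC2. It lies on chromosome 15 (81585351 to 81652077, plus strand), and its lowest, median and highest levels were 23.6, 29.2 and 35.6 CPM in cDC1, 30.8, 35.0 and 42.7 CPM in cDC2, and 26.3, 33.7 and 36.2 CPM in pDC. The ranges overlapped for every pair of tables. Ep300 was higher in cDC2 than in cDC1 (log2 difference 0.31, SE 0.0987, adjusted p = 0.0141) and lower in pDC than in cDC2 (log2 difference -0.35, SE 0.0987, adjusted p = 0.00420). Without scaling factors the second difference was -0.15 and was no longer called (adjusted p = 0.264). pDC against cDC1 gave -0.04 (95% interval -0.25 to 0.163, adjusted p = 0.711), which turned to 0.16 without scaling factors (adjusted p = 0.214).

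Crebbp, which encodes CBP, lies on chromosome 16 (4081328 to 4213997, minus strand) and passed in none of the 3 comparisons. Its lowest, median and highest levels were 31.7, 36.0 and 58.1 CPM in cDC1, 38.1, 44.1 and 52.6 CPM in cDC2, and 49.0, 51.7 and 57.7 CPM in pDC. The cDC1 columns were the most scattered, and their highest, column a157, exceeded every pDC column. The log2 differences were 0.15 for cDC2 against cDC1 (95% interval -0.0717 to 0.377, adjusted p = 0.252), 0.18 for pDC against cDC1 (95% interval -0.0485 to 0.4, adjusted p = 0.156) and 0.02 for pDC against cDC2 (95% interval -0.201 to 0.247, adjusted p = 0.865). Without column a157 of cDC1, cDC2 was higher than cDC1 by 0.28 (adjusted p = 0.0069) and pDC was higher than cDC1 by 0.30 (adjusted p = 0.00269). Without scaling factors pDC was higher than cDC1 by 0.38 (adjusted p = 0.0134).

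Kat2b was the only member called lower in pDC than in both other subsets. It encodes PCAF and lies on chromosome 17 (53566861 to 53672720, plus strand), overlapping Gm6919 on the opposite strand. Columns of Kat2b had lowest, median and highest levels of 12.0, 14.8 and 25.9 CPM in cDC1, 12.3, 12.7 and 13.7 CPM in cDC2, and 6.91, 9.34 and 12.2 CPM in pDC. The pDC columns were all below the cDC2 columns, and overlapped with cDC1 only between 12.0 and 12.2 CPM. Kat2b was 1.99-fold lower in pDC than in cDC1 (log2 difference -0.99, SE 0.147, adjusted p = 5.59e-06) and 1.52-fold lower than in cDC2 (log2 difference -0.60, SE 0.147, adjusted p = 0.00123). It was also lower in cDC2 than in cDC1 (log2 difference -0.39, SE 0.145, adjusted p = 0.0317). That call was lost without scaling factors (adjusted p = 0.0582) and without cDC1 column a157 or a172, or cDC2 column a158, a161, a170 or a173 (adjusted p from 0.0506 to 0.11). Without a157, which held the highest Kat2b level, the difference was -0.23.

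Kat2a, which encodes GCN5, lies on chromosome 11 (100704746 to 100712465, minus strand) and showed no called difference. Its lowest, median and highest levels were 8.03, 9.55 and 20.5 CPM in cDC1, 7.21, 9.65 and 13.1 CPM in cDC2, and 7.69, 10.2 and 12.8 CPM in pDC. The ranges nearly coincided apart from a single high cDC1 column. The pDC columns fell into separate clusters, at 7.69 to 8.25 CPM and at 12.2 to 12.8 CPM, so no pDC column lies near their median. The lower cluster holds columns a159, a162 and a164, where Hdac1 was at 109.7 to 124 CPM. The upper holds a168, a171 and a174, where Hdac1 was at 9.52 to 14.7 CPM. In cDC1 and cDC2, columns with high and with low Hdac1 overlapped in Kat2a. A relation with Hdac1 was not tested. The log2 differences were -0.20 for cDC2 against cDC1 (95% interval -0.599 to 0.201, adjusted p = 0.410), -0.34 for pDC against cDC1 (95% interval -0.74 to 0.06, adjusted p = 0.124) and -0.14 for pDC against cDC2 (95% interval -0.542 to 0.26, adjusted p = 0.540). The last of these turned to 0.07 without scaling factors. These intervals are the widest among the 9 genes.

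For 2 of the 9 genes, Kat7 and Kat8, the pDC columns did not overlap with those of cDC1 in CPM, beside 44.7% of all genes tested. For 3, Kat2b, Kat7 and Kat8, they did not overlap with those of cDC2, beside 51.5% of all genes. No member was without overlap between cDC2 and cDC1, beside 27.1% of all genes. After TMM scaling, Kat2b in pDC against cDC1 and Kat8 in cDC2 against cDC1 were also without overlap (beside 45.3% and 29.0% of all genes), and 3 members were so in pDC against cDC2 (beside 48.7%).

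Because paralogues can stand in for each other in a complex, the ratio of their counts was taken within each column, which needs no scaling between columns. The mean Ep300 to Crebbp ratio was 0.743 ± 0.0780 in cDC1, 0.813 ± 0.0352 in cDC2 and 0.626 ± 0.0575 in pDC (SD, n = 6 columns each). All pDC columns (0.535 to 0.685) were below all cDC2 columns (0.776 to 0.872). The ratio was lower in pDC than in cDC2 by a log2 difference of -0.38 (2-sided exact permutation test over 924 arrangements, p = 0.002165, the smallest it can give, adjusted over 9 tests 0.00649). It was lower in pDC than in cDC1 by -0.25 (exact permutation, adjusted p = 0.0357), and cDC2 against cDC1 gave 0.14 (exact permutation, adjusted p = 0.0974). The call for pDC against cDC1 was lost without cDC1 column a160, a163, a166 or a169, or pDC column a159, a168, a171 or a174 (adjusted p from 0.0519 to 0.0714).

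The Kat6a to Kat6b ratio stood apart in cDC2. It was 2.70 ± 0.506 in cDC1, 4.43 ± 0.412 in cDC2 and 2.64 ± 0.257 in pDC (SD, n = 6 each), and every cDC2 column (3.87 to 4.97) was above every column of cDC1 (2.13 to 3.45) and pDC (2.35 to 3.09). The log2 difference was 0.73 for cDC2 against cDC1 and -0.74 for pDC against cDC2, both at an adjusted p of 0.00649 in the exact permutation test. cDC1 and pDC did not differ beyond their spread, with a log2 difference of -0.02 (exact permutation, adjusted p = 0.892). The Kat2a to Kat2b ratio was 0.692 ± 0.215 in cDC1, 0.766 ± 0.171 in cDC2 and 1.06 ± 0.177 in pDC (SD, n = 6 each), with overlapping columns. It was higher in pDC than in cDC1 by 0.66 (exact permutation, adjusted p = 0.0195) and than in cDC2 by 0.48 (exact permutation, adjusted p = 0.0273), while cDC2 against cDC1 gave 0.18 (exact permutation, adjusted p = 0.528). The call against cDC2 was lost without pDC column a159, a168 or a171 (adjusted p from 0.0519 to 0.0545). These ratios were tested after the levels were known, and they draw on the same counts as the differences above.

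**Figure D3:**
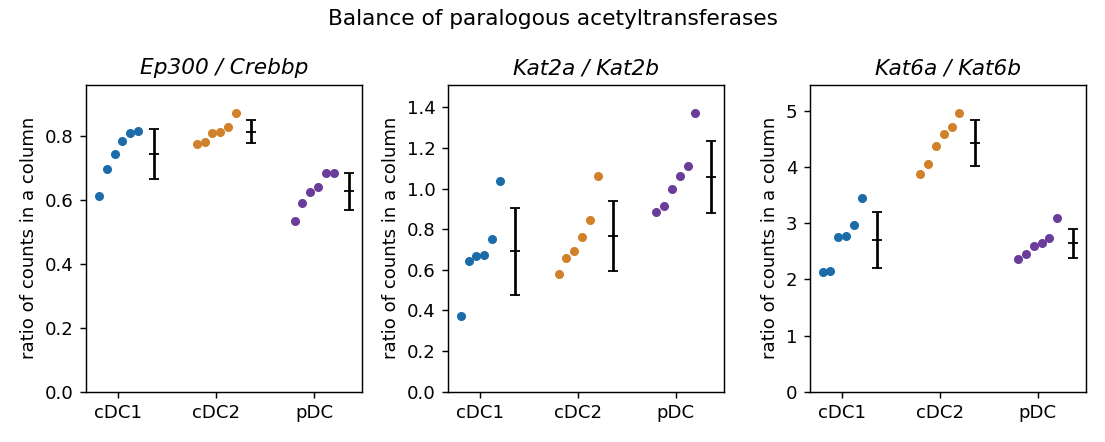
Ratio of the counts of paralogous acetyltransferases within each column (points, vertical axes starting at 0), by table, with the mean and SD. The Kat6a to Kat6b ratio of every cDC2 column (3.87 to 4.97) lies above all other columns, and the Ep300 to Crebbp ratio of every pDC column (0.535 to 0.685) lies below all cDC2 columns.

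To compare levels between genes, CPM was divided by the length in kb of each gene's merged exons (GENCODE M21, GRCm38). The MYST genes Kat8, Kat7 and Kat5 held the first 3 places in each subset on this per-length scale. In cDC1 their levels were 6.22, 5.95 and 5.60 CPM per kb, with overlapping ranges, so their order there is within the spread. In pDC Kat7 and Kat8 reached 12.2 and 11.8 CPM per kb, again overlapping, above Kat5 at 7.84. In cDC2 the 3 were at 7.34, 6.75 and 5.43 CPM per kb, each overlapping with the next. Crebbp was next in pDC with 3.84 CPM per kb, and Ep300 was at 2.05, 2.53 and 2.29 CPM per kb in cDC1, cDC2 and pDC. Kat2b followed these 3 genes in cDC1 (3.44 CPM per kb) and was the last but Kat6b in pDC (2.00 CPM per kb), where its columns overlapped with those of Ep300. Kat6b was last in every subset, at 0.485, 0.407 and 0.700 CPM per kb, below every column of the other 8 genes. The order depends on the transcripts that are used, since merged exons can be longer than the expressed form.

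Genes that work with the acetyltransferases were counted in the same way. Their counts are to be read against the shares of all genes tested, which were 32.1% higher and 34.3% lower in pDC against cDC1, 32.0% and 32.2% in pDC against cDC2, and 25.7% and 24.8% in cDC2 against cDC1. Among 9 scaffold and other subunits of the MOZ/MORF and HBO1 complexes, 3 were higher, 2 were lower and 4 did not pass in pDC against cDC1 (median log2 difference 0.35, against -0.04 for all genes tested). Jade1, a scaffold of HBO1, rose most, from 7.76 to 41.4 CPM after TMM scaling (log2 difference 2.42, SE 0.101, adjusted p = 2.56e-14), and it was also higher in pDC than in cDC2 (1.69) and in cDC2 than in cDC1 (0.73). Brd1, another scaffold, was higher by 0.87, whereas Meaf6, a small subunit shared with the TIP60 complex, was lower by -1.08 and Brpf1 by -0.39. In pDC against cDC2 the counts were 3 higher and 3 lower, and in cDC2 against cDC1 3 higher (Jade2 by 0.65) and 1 lower (Ing4, -0.23).

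Among 17 subunits of the TIP60 complex, 7 were higher and 4 were lower in pDC than in cDC1 (median 0.10), where 66.4% of all genes were called in either direction. Yeats4, a reader of acetylated histones, was higher by 0.97 and Mrgbp by 0.92, while Meaf6 and Mbtd1 were lower (-1.08 and -0.92). In cDC2 against cDC1, 5 were higher and 2 lower, with Yeats4 at 1.14 and the ATPase subunit Ruvbl1 at -1.05. In pDC against cDC2, 5 were higher and 3 lower. The 11 subunits of the MSL and NSL complexes, the partners of Kat8, gave 6 higher and 3 lower in pDC against cDC1 (median 0.25), beside 32.1% and 34.3% of all genes. They were led by Msl3 (0.85) and the O-GlcNAc transferase Ogt (0.60), with Kansl3 at -0.45. In pDC against cDC2 there were 4 higher and 2 lower, with Msl1 at -0.64, and in cDC2 against cDC1 5 higher and 3 lower.

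Among 23 subunits of SAGA and ATAC, the complexes of Kat2a and Kat2b, 6 were higher and 6 were lower in pDC than in cDC1 (median 0.15), beside 32.1% and 34.3% of all genes. Usp22, the SAGA deubiquitinase, fell from 49.0 CPM after TMM scaling in cDC1 to 20.7 in cDC2 (log2 difference -1.25, adjusted p = 2.5e-10) and 25.7 in pDC (-0.93, adjusted p = 5.55e-09). Dr1, an ATAC-associated subunit, was higher in pDC by 0.88 and Mbip by 0.66, and Yeats2 was lower by -0.82. In cDC2 against cDC1, 7 were higher and 3 lower, with Taf5l at -0.54, and in pDC against cDC2, 8 were higher and 6 lower.

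**Figure D4:**
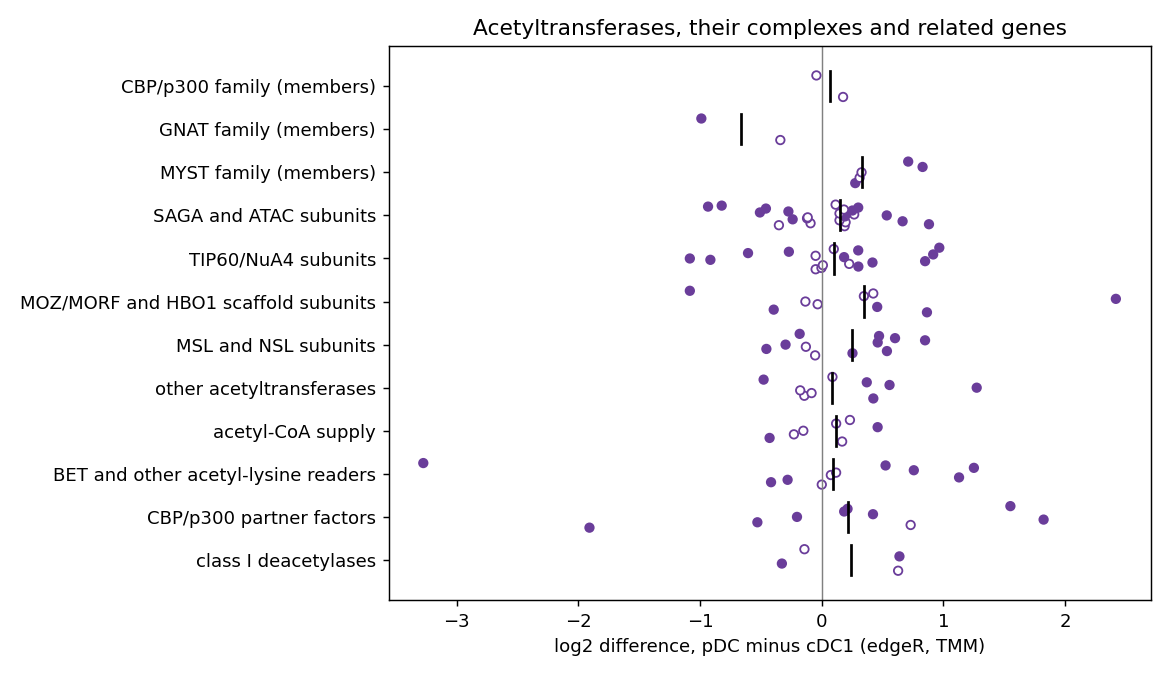
Log2 difference of pDC minus cDC1 (horizontal axis, edgeR with TMM) for each gene of 12 lists (points, filled at adjusted p under 0.05), with the list's median as a vertical bar. Genes of most lists lie on both sides of 0, with Jade1 (2.42) farthest to the right and Mllt3 (-3.27) farthest to the left.

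Several factors that bind CBP and p300 differed between subsets by more than either enzyme did. Of 9, 5 were higher and 3 lower in pDC than in cDC1 (median 0.21), beside 32.1% and 34.3% of all genes. Crtc1, a CREB co-activator, was higher by 1.82 (SE 0.149, adjusted p = 9.72e-10) and Stat2, of the interferon response, by 1.55 (SE 0.115, adjusted p = 2.2e-10), while Cited2, which competes for a CBP/p300 domain, was lower by -1.91 (SE 0.128, adjusted p = 4.77e-11) and Creb1 by -0.53. In cDC2 against cDC1, 4 were higher and 2 lower, led by Crtc3 (1.62), and in pDC against cDC2, 2 were higher and 3 lower, with Crtc3 at -1.20. Of 9 other acetyltransferases, 4 were higher and 1 lower in pDC than in cDC1, beside the same shares. Hat1, which acetylates newly made histone H4, was higher in pDC than in cDC1 by 1.27 and than in cDC2 by 0.49, and the co-activator Ncoa3 was lower in pDC (-0.48 against cDC1 and -0.51 against cDC2). In cDC2 against cDC1 this list gave 3 higher and 1 lower, and in pDC against cDC2 4 higher and 3 lower.

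Of 10 readers of acetylated lysine, 4 were higher and 3 lower in pDC than in cDC1, beside 32.1% and 34.3% of all genes. The BET gene Brd3 was higher by 1.13 and Cecr2 by 1.25, and Mllt3, a YEATS-domain reader, was lower by -3.27 in pDC and by -2.90 in cDC2, both against cDC1. The readers gave 4 higher and 2 lower in cDC2 against cDC1, and 4 higher and 1 lower in pDC against cDC2. Of 7 genes that supply acetyl-CoA, 1 was higher (Pdha1, 0.46) and 1 lower (Acss1, -0.43) in pDC than in cDC1, and 5 were higher and 1 lower (Acss1, -0.93) in pDC than in cDC2, where 32.0% of all genes were higher and 32.2% lower. In cDC2 against cDC1 there was 1 higher (Acss1, 0.50) and 1 lower (Acss2, -0.73). Of the 4 class I deacetylases, Hdac3 was higher in pDC than in cDC1 (0.64) and cDC2 (0.68), Hdac2 was lower in pDC than in cDC1 (-0.33), and Hdac8 was lower in pDC than in cDC2 (-0.34). Hdac1 was called in no comparison, with a log2 difference of 0.63 (SE 0.85) in pDC against cDC1. Its columns lay at 4.94 to 9.49 and 56.9 to 74.6 CPM in cDC1, and at 9.52 to 14.7 and 109.7 to 124 CPM in pDC. With that spread within a table, the test could not call a difference of this size, so the missing call does not show equal levels.

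Over the 18 columns, the genes whose log2 CPM followed Kat7 most closely were Irf9 (Pearson r = 0.982), Zfp68 (0.976) and Slc29a3 (0.974). Irf9, a partner of Stat2 in the interferon response, had mean levels of 78.3, 88.4 and 152 CPM in cDC1, cDC2 and pDC. For Ep300 they were Zfp871 (0.898), Lnpep (0.895) and Usp48 (0.883). These correlations describe 18 columns that fall into 3 subsets and share their depth within a column.

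Spread within a table differed among the members. The SD of Kat2a in cDC1 was 40.8% of its mean and that of Kat2b in cDC1 30.9%, against 4.06% for Kat2b in cDC2 and 4.82% for Kat7 in pDC. Relations between members, and with column totals, were examined within each table (135 in all). Of these, 35 were left out because the columns fell into separate clusters, and of the other 100, 16 had an exact permutation p under 0.05 and 0 passed after adjustment (smallest adjusted p = 0.202). The smallest exact permutation p was 0.00278 (Ep300 and Kat6a in cDC2), the least that 6 columns can give. At that value a relation on its own could not pass the adjustment over 100, so the lack of passes does not show that relations are absent. Ep300 and Crebbp gave r = 0.884 and rho = 0.943 in cDC1 (n = 6, exact permutation p = 0.0417 and 0.0167, adjusted p of r = 0.295), r = 0.933 and rho = 0.943 in cDC2 (exact permutation p = 0.0167 and 0.0167, adjusted p = 0.202) and r = 0.902 and rho = 0.829 in pDC (exact permutation p = 0.0194 and 0.0583, adjusted p = 0.202). Without the 2 columns farthest from the median of Ep300, r fell to 0.345, 0.671 and 0.331. The columns left span a narrower range of Ep300, which can lower r by itself, so this fall does not show that the relation rests on the columns removed. The labels name no batch, so no within-batch value could be taken.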

How the data were processed

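Libraries of sorted splenic dendritic cells were sequenced, and per the submitters' processing notes kallisto, DESeq2 and GRCm38 were used, with no versions or roles given in the sources used here. The authors deposited whole-number counts per gene in 3 tables of 6 columns, and 3 normalized tables that were not used here. Column codes match no label, so a column's subset is that of its table's title and no genotype was assigned. CPM used each column's own total (23530860 to 37105002 counts).

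Genes listed in all 3 tables (15219) were fitted with edgeR 4.0.16 (TMM, filterByExpr, glmQLFit and glmQLFTest, R 4.3.3), with subset as the only term, and p-values of the 13539 genes tested were adjusted by Benjamini-Hochberg at 0.05. The script was tested on simulated counts of 13539 genes, of which 200 were changed. In pDC against cDC1 it called 48% of 1.5-fold, 74% of 2-fold, 96% of 3-fold and 100% of 4-fold changes, and 0.053% of unchanged genes. Small changes were thus often missed there. The deposited counts gave many more calls than that setting, so recovery in them can differ. Alternatives were DESeq2 1.42.0, other scaling, no filter, other library sizes, only the subsets compared, and leaving out each column. The absence of scaling factors, the paralogue ratios, their leave-outs, the promoter motifs and the relations within tables were chosen after seeing the data. The members and gene lists were chosen with earlier results of these data known. The rule for named genes took the 9 members, from each list the 2 with the largest called change in each direction of each comparison (not all described), and the 3 genes most like Kat7 and Ep300.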

Additional observations from a re-analysis of the deposited data

Results flagged for a closer look

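In the 27 groups of 6 columns (9 genes in 3 subsets), 2 columns stood far from the others, where chance would give about 1 in 20 groups. The highest cDC1 column of Kat2a was at 20.5 CPM and the next at 11.1 CPM, a gap of 0.753 of the whole range. The highest cDC2 column of Kat7 was at 43.1 CPM and the next at 37.2 CPM, a gap of 0.720 of the range. Both lie above the critical value of 0.625 for 6 values.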

How the results depend on the processing

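The number of genes called stayed within 1.5 times the main count under every alternative run: 6416 to 7036 for cDC2 against cDC1, 8660 to 9223 for pDC against cDC1, 8435 to 8976 for pDC against cDC2, and 10505 to 10987 for any difference. The 27 member differences kept their direction and their side of the threshold under DESeq2, its size factors, upper-quartile factors, no filter and each table's own library size. With only the 2 subsets fitted, 1 call was lost (Kat7, cDC2 against cDC1). Without scaling factors 3 uncalled differences changed sign: Ep300 in pDC against cDC1 (0.16), and Kat2a (0.072) and Kat6a (0.042) in pDC against cDC2. The cause was not tested. Of 486 refits that left out 1 column, 440 kept direction and call, 31 lost a call, 8 gained one and 7 changed sign. The sign changes were all of uncalled differences: Ep300 in pDC against cDC1 ranged from -0.0805 to 0.0191, Crebbp in pDC against cDC2 from -0.0105 to 0.0836 and Kat5 in cDC2 against cDC1 from -0.125 to 0.0186. The Kat6a to Kat6b ratio in pDC against cDC1 ranged from -0.0800 to 0.0591, changing sign in 4 of 18 refits. As TMM-scaled CPM, 3 of 27 mean levels moved by more than 1 SD (Crebbp in pDC to 47.3, Kat2b in cDC2 to 13.4 and Kat7 in pDC to 61.5). No paired analysis was possible because no column could be tied to a numbered sample. Member counts ranged from 152 (Kat6b, cDC2) to 2176 (Kat7, pDC) per column.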

Other observations

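Hdac1 levels, ordered from lowest to highest, were 4.94, 5.14, 9.49, 56.9, 71.8 and 74.6 CPM in the cDC1 columns, 5.78, 6.07, 7.60, 66.1, 76.6 and 79.7 CPM in the cDC2 columns, and 9.52, 13.1, 14.7, 109.7, 113.6 and 124.3 CPM in the pDC columns. Each table thus holds 3 columns under 15 CPM and 3 above 50 CPM, and no label ties a column to a genotype. These values are given without a test.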
